A study of Mus musculus with 12 samples.

Results

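Uba1, Ube2a, Huwe1, Cul4b, Xiap, Usp9x, Usp11, Usp27x and Otud5 are X-linked genes of the ubiquitin pathway, and these 9 were selected by symbol from the 952 X-linked genes of the deposited table. All 9 had a value in each of the 8 chromatin immunoprecipitation and sequencing (ChIP-seq) libraries, as did 698 genes of the whole table. The libraries measured H3K9me3 and H3K27me3, histone H3 trimethylated at lysine 9 or lysine 27, in epiblast stem cells (EpiSCs, E6.5) and mouse embryonic fibroblasts (MEFs, E13.5, the stages being days of embryonic development). The cells were female, from a cross of C57BL6/J with an F1 of JF1 and C57BL6/J, and either Smchd1 +/+ (WT) or Smchd1 MD1/MD1 (MD1), an allele that removes SmcHD1, a chromosomal protein needed to maintain X inactivation. WT and MD1 cells alike were Xist deltaA/+, a deletion on 1 X that leaves the other X as the inactive one. Each mark, genotype and cell type was 1 library, and the 4 input libraries were not analysed here on their own. No difference below therefore has a replicate check, and no p-value is given. The labels do not say how many embryos or fetuses stood behind each culture, and cell identity could not be checked, because the table holds histone marks of X-linked genes only.

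Ubiquitin is a small protein that is attached to other proteins and marks them for destruction or changes what they do. An activating enzyme charges it, a conjugating enzyme carries it, a ligase chooses the substrate, and deubiquitinases take it off again. In female mammals most X-linked genes are silenced on 1 of the X chromosomes, where Polycomb enzymes place H3K27me3 and a separate set of methyltransferases places H3K9me3. In human cells UBA1 and USP9X are known to escape this silencing at least in part.

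Promoter sequences of 8 of the 9 genes were found by symbol in a RefSeq table of GRCm38.p6, and Usp9x had no entry. The 250 bases before the annotated start are shown for 3 genes with 1 entry each, chosen for how far apart their H3K27me3 moved in MD1 cells: Huwe1 had the largest loss of the 9 in MEFs, Cul4b the largest gain of the 9 in EpiSCs, and Usp27x was the single member with a gain in MEFs. Capitals mark CG dinucleotides, the sites of DNA methylation in mammals. The positions are chrX:151803032-151803281 (plus strand), chrX:38576197-38576446 (minus strand) and chrX:7375831-7376080 (minus strand) in that build, which is not the mm9 build of the ChIP table.
Huwe1: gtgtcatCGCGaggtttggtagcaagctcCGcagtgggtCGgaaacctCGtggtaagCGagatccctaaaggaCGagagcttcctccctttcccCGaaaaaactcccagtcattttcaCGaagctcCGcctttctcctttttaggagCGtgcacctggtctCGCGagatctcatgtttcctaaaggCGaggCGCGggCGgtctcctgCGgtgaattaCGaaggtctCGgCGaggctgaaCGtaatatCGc
Cul4b: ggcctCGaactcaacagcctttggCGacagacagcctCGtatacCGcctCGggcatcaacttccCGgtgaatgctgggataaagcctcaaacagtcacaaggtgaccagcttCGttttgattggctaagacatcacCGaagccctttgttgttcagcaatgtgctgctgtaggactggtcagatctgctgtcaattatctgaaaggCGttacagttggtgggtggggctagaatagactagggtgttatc
Usp27x: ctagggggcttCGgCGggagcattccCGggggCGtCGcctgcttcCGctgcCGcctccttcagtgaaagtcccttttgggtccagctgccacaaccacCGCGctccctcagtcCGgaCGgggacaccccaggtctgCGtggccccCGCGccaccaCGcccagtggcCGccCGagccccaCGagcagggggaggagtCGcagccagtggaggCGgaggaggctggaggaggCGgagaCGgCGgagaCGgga

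Huwe1 and Usp27x, which moved in opposite directions in MEFs, had nearly the same number of CG dinucleotides, 23 and 24, at the 87.4 and 88.7 percentile of 32851 promoter entries, against 9 in Cul4b at the 60.9 percentile. The median entry held 6, and 92.1% of entries held at least 1 CG. The 8 genes had 13 entries, with 1 to 26 CG dinucleotides each, and a link between CG number and the H3K27me3 change was not tested. A gene was counted for a motif when any of its entries held it on either strand. The CCAAT box (CCAAT) was found in Cul4b, Otud5, Uba1 and Usp11, as in 37.5% of all genes with an entry (33.8% of entries), and the GC box (GGGCGG) in Huwe1, Otud5, Ube2a, Usp27x and Xiap, as in 35.4% of genes (32.7% of entries). The ETS core (CCGGAA) was found in Otud5, Usp11 and Xiap, as in 13.6% of genes, and the TATA box (TATAAA) in Xiap, as in 14.3%. These motifs were picked after the sequences were seen, and a match describes letters, not a bound factor.

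In WT EpiSCs the 9 genes split into a group of 7 with much H3K9me3 and a pair with little. H3K9me3-rich genes are those at least 2-fold over input on the deposited log2 scale. That scale holds an unknown constant of the library, so the true level over input is not known. Uba1, Ube2a, Cul4b, Xiap, Usp11, Usp27x and Otud5 were rich, 7 of 9 members where 63.8% of 708 genes were. Their values lay between 3.20 and 3.85, while Huwe1 had 0.44 and Usp9x −1.19. H3K27me3 ran the other way round. Huwe1 (4.62) and Usp9x (4.53) had the highest H3K27me3 of the 9, at the 72.9 and 68.9 percentiles of all measured genes, and Cul4b (0.51) and Xiap (1.08) the lowest, at the 11.1 and 13.3 percentiles. The other 5 lay between 2.35 and 3.56. The marks of the same cells share an input library.

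**Figure D1:**
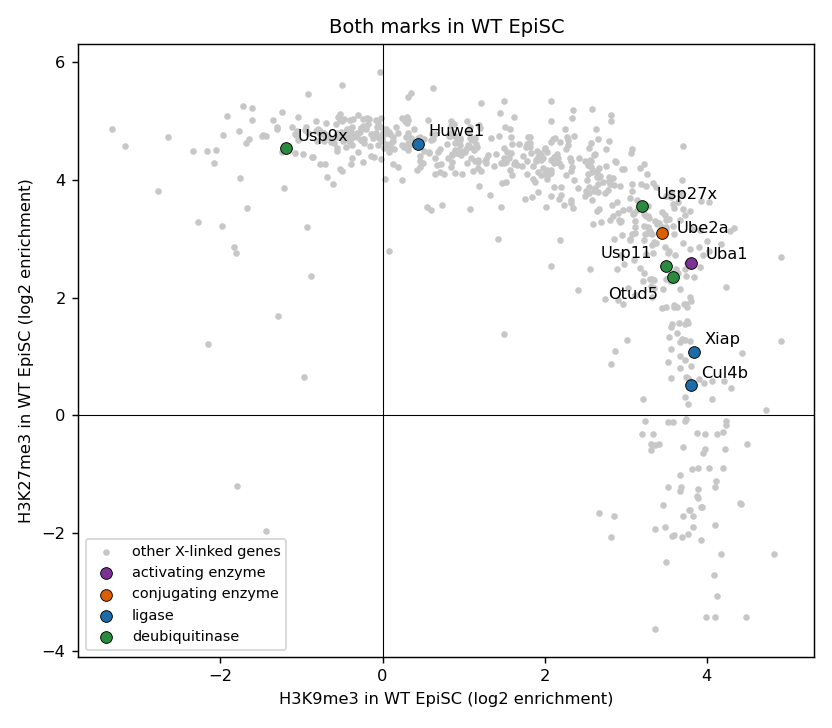
H3K9me3 (x axis) against H3K27me3 (y axis) in WT EpiSCs, as deposited log2 enrichment, for 698 X-linked genes, each point 1 gene, with the 9 ubiquitin pathway genes coloured by role. Huwe1 and Usp9x sit at the upper left with H3K27me3 of 4.62 and 4.53, and the other 7 lie to the right with H3K9me3 from 3.20 to 3.85.

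In WT MEFs the same pair stood lowest in H3K9me3 and 3 genes were rich. Uba1 (1.73), Usp11 (1.30) and Otud5 (1.19) were at least 2-fold over input, 3 of 9 members where 20.2% of 739 genes were. Ube2a (0.77), Usp27x (0.50), Xiap (0.29) and Cul4b (0.28) came next, and Huwe1 (−0.996) and Usp9x (−1.69) were at the 9.04 and 2.34 percentiles of the library. Usp9x (2.96) and Huwe1 (2.74) again had the most H3K27me3 of the 9, at the 92.8 and 86.8 percentiles, followed by Ube2a (2.56) and Cul4b (1.94). Usp27x, Xiap, Uba1, Otud5 and Usp11 lay between 1.12 and 1.56. Each library carries an unknown constant, so levels are ordered here within a library and not across cell types.

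**Figure D2:**
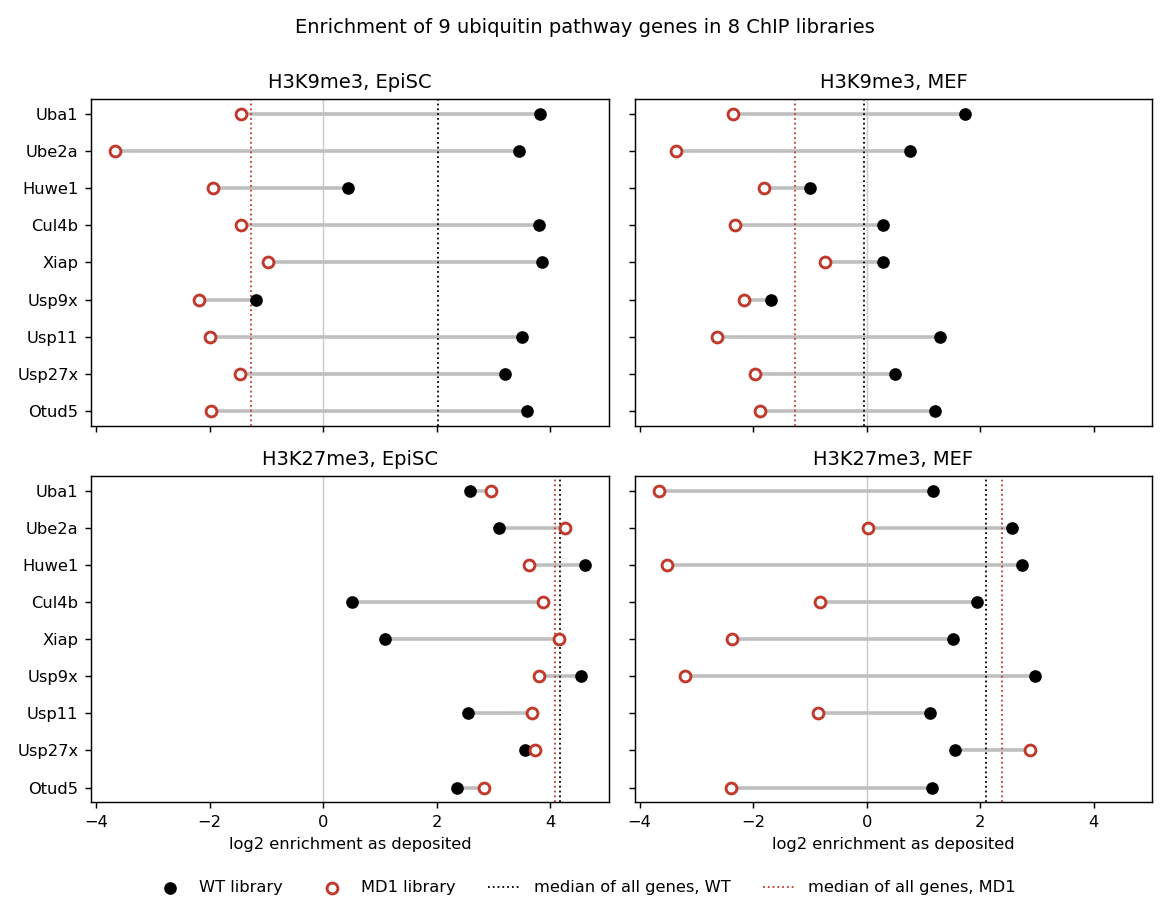
Deposited log2 enrichment (x axis) of each of the 9 genes (rows) in the WT (filled) and MD1 (open) library, with 1 panel per mark and cell type and dotted lines at the median of all measured genes. The open points lie left of the filled ones for all 9 genes in both H3K9me3 panels and for 8 of 9 in the H3K27me3 panel of MEFs, where Usp27x lies right.

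In MD1 cells H3K9me3 was lower at the 9 genes in both cell types. In EpiSCs it was at least 2-fold lower at 9 of 9 members, where 82.9% of 708 genes were, and at least 8-fold lower at 7 of 9, where 49.4% were, and at least 2-fold higher at 0 of 9, where 1.13% were. The median change of the members was −5.26 on the log2 scale, against −2.98 over all genes. In MEFs it was at least 2-fold lower at 7 of 9, where 51.3% of 739 genes were, and at least 8-fold lower at 4 of 9, where 13.1% were, and at least 2-fold higher at 0 of 9, where 0.677% were, with a median change of −2.59 against −1.02 over all genes. The members that did not pass in MEFs were Huwe1 and Usp9x, the pair that had the least H3K9me3 in WT cells. Each change also contains the ratio of the library constants. Centring on genes outside the rich set moved every H3K9me3 change by 1.09 in EpiSCs and 0.89 in MEFs and every H3K27me3 change by 0.48 and −0.28, and it put Usp9x at 0.080 in EpiSCs, and Usp9x and Huwe1 at 0.42 and 0.068 in MEFs, all above 0. The H3K9me3 fall of Otud5 in MEFs was under 8-fold after centring (−2.18) and with a pseudocount of 0.1 (−2.68).

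H3K27me3 moved differently in the 2 cell types. In MD1 EpiSCs it was at least 2-fold higher at 4 of 9 members, Cul4b, Xiap, Ube2a and Usp11, where 22.7% of genes were, and at least 2-fold lower at 0 of 9, where 11.3% were. Cul4b and Xiap were at least 8-fold higher, 2 of 9 where 8.62% of genes were. In MD1 MEFs it was at least 2-fold lower at 8 of 9, where 24.0% of genes were, and at least 8-fold lower at 5 of 9 (Huwe1, Usp9x, Uba1, Xiap and Otud5), where 11.0% were. With a pseudocount of 0.1 the MEF change of Otud5 was −2.996, just under 8-fold. Usp27x was at least 2-fold higher, as were 22.3% of genes. The median change was 0.48 in EpiSCs and −3.54 in MEFs, against −0.069 and 0.34 over all genes. Cul4b, Xiap, Ube2a and Usp11 were at least 2-fold higher in MD1 EpiSCs and at least 2-fold lower in MD1 MEFs, a combination found at 2.87% of 698 genes. In MEFs 7 of the 9 went from a value above 0 in WT to one below 0 in MD1, where 16.2% of genes did. Where 0 lies in each library depends on its unknown constant.

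**Figure D3:**
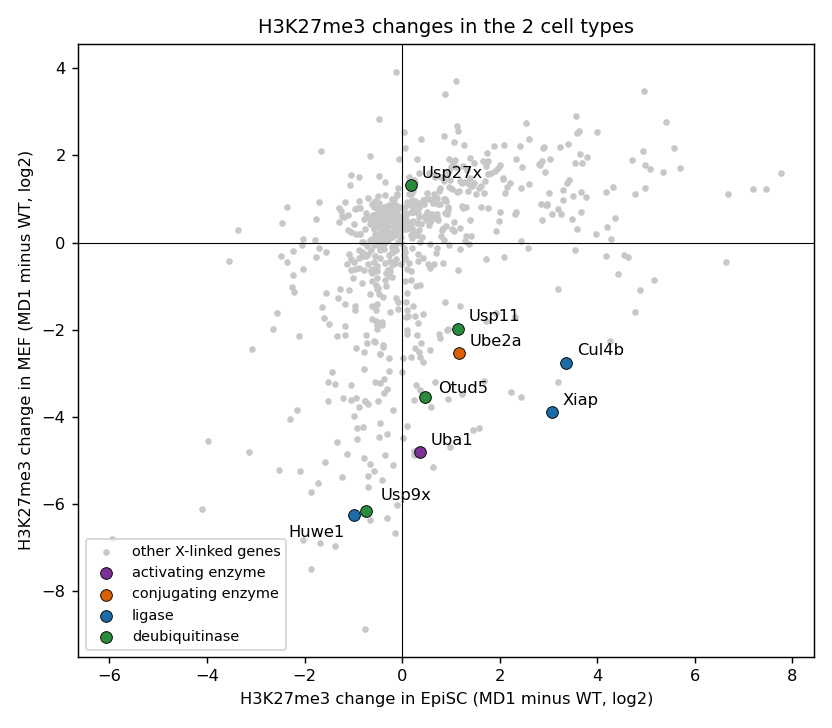
H3K27me3 change (MD1 minus WT, log2) in EpiSCs (x axis) against MEFs (y axis) for 698 X-linked genes, each point 1 gene, with the 9 members coloured by role. Cul4b and Xiap lie far to the lower right, Huwe1 and Usp9x at the bottom left of centre with MEF changes of −6.25 and −6.17, and Usp27x is the single member above 0 on the y axis.

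The intervals given below for single genes are 95% counting intervals from whole-number read pairs recovered from the deposited ratios. They cover counting error only.

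Uba1 encodes the activating enzyme at the head of the cascade. It lies at X, 20235428 to 20260305 in mm9, on the plus strand. Its H3K9me3 was 3.81 in WT and −1.45 in MD1 EpiSCs, and 1.73 in WT and −2.36 in MD1 MEFs. H3K27me3 was 2.59 in WT and 2.95 in MD1 EpiSCs, and 1.16 in WT and −3.65 in MD1 MEFs. Uba1 thus had the highest H3K9me3 of the 9 in WT MEFs and the lowest H3K27me3 of the 9 in MD1 MEFs. The H3K9me3 changes were −5.26 (−6.21 to −4.31) in EpiSCs and −4.09 (−4.73 to −3.44) in MEFs. H3K27me3 changed by −4.81 (−5.62 to −4.01) in MEFs, while the EpiSC change of 0.37 had an interval of −0.079 to 0.81 that included 0.

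Ube2a encodes a conjugating enzyme, the mammalian counterpart of yeast Rad6, which acts in DNA damage tolerance and in ubiquitination of histone H2B. The gene lies at X, 34414361 to 34424215 (plus strand). Its H3K9me3 was 3.45 in WT and −3.67 in MD1 EpiSCs, and 0.77 in WT and −3.36 in MD1 MEFs, the lowest MD1 value of the 9 genes in both. H3K27me3 was 3.10 in WT and 4.25 in MD1 EpiSCs, and 2.56 in WT and 0.026 in MD1 MEFs. The recovered MD1 pair held a ChIP count of 1 for H3K9me3 in EpiSCs, so the change of −7.13 had a wide interval (−10.1 to −4.16). In MEFs H3K9me3 changed by −4.13 (−5.53 to −2.72). H3K27me3 rose by 1.16 (0.29 to 2.03) in EpiSCs and fell by 2.53 in MEFs (−3.13 to −1.93).

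Of the ligases, Huwe1 encodes a giant HECT-domain enzyme with substrates that include p53 and Mcl1. It is the longest of the 9 genes, 132137 bases at X, 148237825 to 148369961 (plus strand). Its H3K9me3 was 0.44 in WT and −1.95 in MD1 EpiSCs, and −0.996 in WT and −1.82 in MD1 MEFs. H3K27me3 was 4.62 in WT and 3.62 in MD1 EpiSCs, and 2.74 in WT and −3.51 in MD1 MEFs. The MEF fall therefore took Huwe1 from among the higher values of its library to the 2.19 percentile. H3K9me3 changed by −2.38 (−3.01 to −1.76) in EpiSCs and −0.82 (−1.24 to −0.40) in MEFs, where it was 0.068 after centring. In H3K27me3 the MEF fall was 76.0-fold, and the EpiSC change of −0.99 lay just under 2-fold.

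Cul4b encodes a cullin, the scaffold of a multi-subunit ligase that acts on chromatin and replication proteins. It lies at X, 35884798 to 35929373 (minus strand). Its H3K9me3 was 3.80 in WT and −1.45 in MD1 EpiSCs, and 0.28 in WT and −2.32 in MD1 MEFs. H3K27me3 was 0.51 in WT and 3.88 in MD1 EpiSCs, and 1.94 in WT and −0.82 in MD1 MEFs. Cul4b went from the lowest H3K27me3 of the 9 in WT EpiSCs to the third highest in MD1 EpiSCs. The H3K27me3 changes were 3.36 (2.43 to 4.30) in EpiSCs, 10.3-fold, and −2.75 (−3.12 to −2.39) in MEFs. H3K9me3 changed by −5.26 (−6.11 to −4.41) and −2.59 (−3.17 to −2.02).

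Xiap encodes a RING-domain ligase that also binds and inhibits caspases, the proteases of apoptosis. It lies at X, 39421013 to 39462841 (plus strand). H3K9me3 was 3.85 in WT and −0.98 in MD1 EpiSCs, and 0.29 in WT and −0.73 in MD1 MEFs, the highest MD1 value of the 9 genes in both. H3K27me3 was 1.08 in WT and 4.15 in MD1 EpiSCs, and 1.53 in WT and −2.37 in MD1 MEFs. Like Cul4b, Xiap had little H3K27me3 in WT EpiSCs and gained it in MD1, by 3.07 (2.69 to 3.45), and in MEFs it changed in the opposite direction, by −3.90 (−4.35 to −3.45). The H3K9me3 changes were −4.83 (−5.42 to −4.23) in EpiSCs and −1.02 (−1.42 to −0.62) in MEFs, the latter just past 2-fold and near the median of all genes. It was under 2-fold after centring (−0.13) and with a pseudocount of 0.1 (−0.91).

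Among the deubiquitinases, Usp9x encodes a large enzyme that stabilises many substrates, among them the survival protein Mcl1. The gene lies at X, 12648624 to 12750453 (plus strand). Its H3K9me3 was −1.19 in WT and −2.19 in MD1 EpiSCs, and −1.69 in WT and −2.15 in MD1 MEFs, below 0 in all 4 libraries. H3K27me3 was 4.53 in WT and 3.80 in MD1 EpiSCs, and 2.96 in WT and −3.20 in MD1 MEFs. As deposited, Usp9x had the smallest H3K9me3 changes of the 9 (after centring, the MEF changes of Huwe1 and Xiap were smaller, 0.068 and −0.13 against 0.42), −1.01 (−1.75 to −0.27) in EpiSCs, just past 2-fold, and −0.47 (−1.21 to 0.27) in MEFs, beside a MEF H3K27me3 change of −6.17 (−6.61 to −5.72), close to that of Huwe1. With a pseudocount of 0.1 the H3K9me3 change in EpiSCs was −0.76, under 2-fold. In EpiSCs H3K27me3 changed by −0.73 (−0.96 to −0.51).

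Usp11 encodes a deubiquitinase with a part in DNA repair and lies at X, 20281035 to 20297665 (plus strand), 20729 bases beyond Uba1 with 1 measured gene, Cdk16, between them. Its H3K9me3 was 3.50 in WT and −1.99 in MD1 EpiSCs, and 1.30 in WT and −2.64 in MD1 MEFs. H3K27me3 was 2.54 in WT and 3.68 in MD1 EpiSCs, and 1.12 in WT and −0.86 in MD1 MEFs. Uba1 and Usp11 had nearly the same WT H3K27me3 in EpiSCs (2.59 and 2.54) and in MEFs (1.16 and 1.12), but the MEF H3K27me3 change of Usp11 was −1.97 (−2.58 to −1.37), an interval that does not meet that of Uba1. The EpiSC change was 1.14 (0.73 to 1.55), and H3K9me3 changed by −5.49 (−6.44 to −4.55) in EpiSCs and −3.93 (−4.98 to −2.89) in MEFs.

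Otud5 encodes a deubiquitinase of the ovarian tumour family that restrains interferon signalling. It lies at X, 7418957 to 7453752 (plus strand). H3K9me3 was 3.58 in WT and −1.97 in MD1 EpiSCs, and 1.19 in WT and −1.88 in MD1 MEFs. H3K27me3 was 2.35 in WT and 2.83 in MD1 EpiSCs, and 1.15 in WT and −2.39 in MD1 MEFs. H3K9me3 changed by −5.56 (−6.31 to −4.81) and −3.07 (−3.59 to −2.55), and H3K27me3 by 0.48 (0.12 to 0.84) in EpiSCs, under 2-fold, and −3.54 (−4.06 to −3.02) in MEFs.

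Usp27x, a paralogue of Usp22, the deubiquitinase of the SAGA coactivator complex, departed from the rest in MEFs. It is the shortest of the 9, 3240 bases at X, 6949717 to 6952956 (minus strand). Its H3K9me3 was 3.20 in WT and −1.46 in MD1 EpiSCs, and 0.50 in WT and −1.97 in MD1 MEFs. H3K27me3 was 3.56 in WT and 3.74 in MD1 EpiSCs, and 1.56 in WT and 2.87 in MD1 MEFs, the highest of the 9 in that library. Its input pairs, 6, 8, 11 and 15, were the smallest of the 9 genes in each of the 4 kinds of cell. The MEF H3K27me3 change of 1.31 had an interval of 0.037 to 2.59, and the MEF H3K9me3 change of −2.47 one of −4.97 to 0.030 that included 0. After centring the H3K27me3 change was 1.03, a shift of −0.28 that takes the lower bound of its interval below 0. In EpiSCs H3K9me3 changed by −4.67 (−7.97 to −1.36), with a single ChIP count in the recovered MD1 pair.

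**Figure D4:**
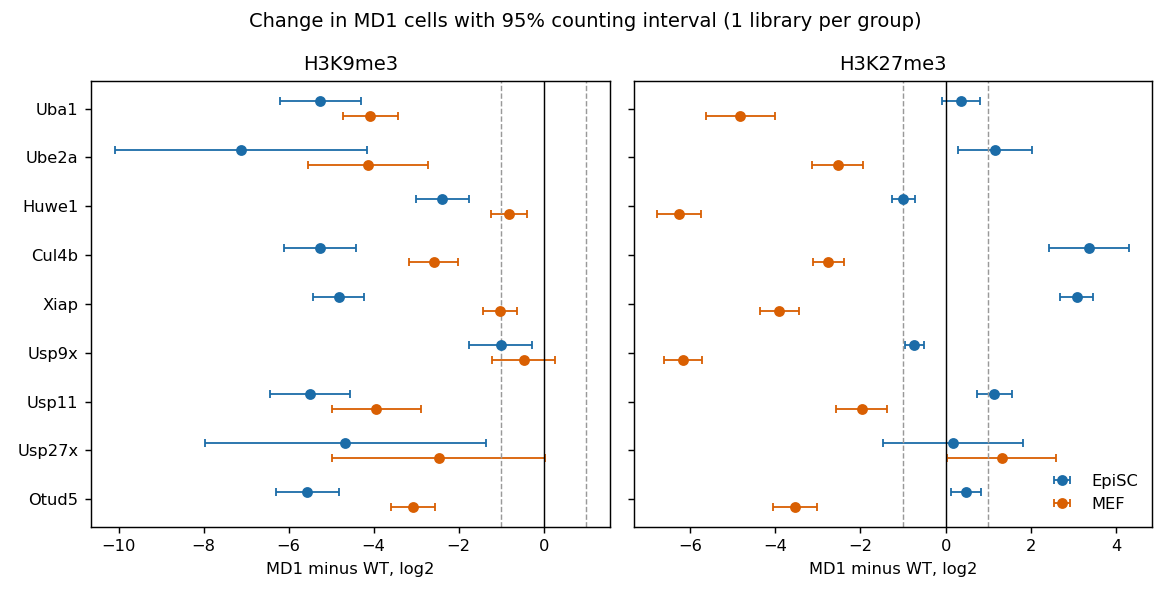
Change in MD1 cells (MD1 minus WT, log2, x axis) of each of the 9 genes for H3K9me3 and H3K27me3, in EpiSCs and MEFs, with bars for the 95% counting interval and dashed lines at 2-fold. H3K27me3 changes of the same gene lie on opposite sides of 0 in the 2 cell types for Uba1, Ube2a, Cul4b, Xiap, Usp11 and Otud5, while the H3K9me3 points all lie below 0.

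Other X-linked genes of the pathway fell in H3K27me3 in MEFs about as often as X-linked genes in general. Of a list of 31 such symbols, 29 were in the table, and 23 had values in both EpiSC genotypes and 24 in both MEF genotypes. H3K27me3 in MD1 MEFs was at least 2-fold lower at 7 of 24 (29.2%) and higher at 5 (20.8%), where 24.0% and 22.3% of all genes were. The largest falls were at Ubl4 (1.59 in WT and −3.76 in MD1), a ubiquitin-like protein gene with 1 ChIP count in the MD1 pair, and Ikbkg (2.62 and −1.77), which encodes the ubiquitin-binding subunit NEMO of the IκB kinase complex, with a change of −4.39 (−4.75 to −4.03). The largest gains were at the paralogues Dcaf12l1 (1.23 and 3.40) and Dcaf12l2 (0.59 and 2.62). In MD1 EpiSCs H3K27me3 was at least 2-fold higher at 4 of 23 (17.4%) and lower at 2 (8.70%), where 22.7% and 11.3% of all genes were. The gains were led again by Dcaf12l1 (−2.07 and 3.49) and Dcaf12l2 (−0.097 and 3.54), and the lower genes were Siah1b (4.26 and 2.14), which encodes a RING-domain ligase, and Psmd10 (4.51 and 3.14), which encodes a proteasome chaperone. H3K9me3 was at least 2-fold lower at 15 of 23 in EpiSCs (65.2%, where 82.9% of all genes were), most at Brcc3 (3.76 and −1.31) and Lonrf3 (2.84 and −2.00). In MEFs it was lower at 15 of 24 (62.5%, where 51.3% of all genes were), most at Ubqln2 (3.28 and −1.39, interval of the change −7.20 to −2.14) and Psmd10 (−0.33 and −3.71, −6.34 to −0.42), with MD1 ChIP counts of 2 and 1. It was at least 2-fold higher at 0 genes of the list in either, where 1.13% and 0.677% of all genes were.

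Along the chromosome, the neighbours of the 9 genes differed in how many of them changed. The 5 measured genes on each side of a member gave 10 neighbours. In MD1 EpiSCs H3K9me3 was at least 2-fold lower at 10 of 10 neighbours of Uba1, Ube2a, Cul4b, Usp11, Usp27x and Otud5, at 9 of 10 around Xiap, 7 around Huwe1 and 6 around Usp9x, where 82.9% of all genes were. In MD1 MEFs it was so at 10 of 10 around Uba1, Ube2a, Usp11, Usp27x and Otud5, 8 around Cul4b and Xiap, 4 around Huwe1 and 2 around Usp9x, where 51.3% of all genes were. H3K27me3 in MD1 MEFs was at least 2-fold lower at 7 of 10 neighbours of Usp9x and Otud5, 6 around Uba1, Usp11 and Huwe1, 5 around Cul4b, 4 around Xiap, 3 around Ube2a and 2 around Usp27x, where 24.0% of all genes were. The median neighbour changed by −1.40 around Huwe1 and −1.86 around Usp9x, whose own changes of −6.25 and −6.17 lay below that of the lowest neighbour in each case (−4.25 and −5.38). The own changes of Uba1 (−4.81) and Xiap (−3.90) also lay below those of all 10 of their neighbours. The lowest of these neighbours, −4.70 and −3.55, were however inside the counting intervals of Uba1 and Xiap. With a pseudocount of 0.1 the own changes were −3.70 and −3.35. The neighbours were not recomputed with it, so the order under the pseudocount was not tested. Around Xiap, Usp27x and Ube2a the median neighbour did not fall, at 0.79, 0.55 and 0.0030. The windows of Uba1 and Usp11 overlap, as do those of Cul4b and Xiap.

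Otud5 showed how sharply adjacent genes could differ in MEFs. Kcnd1, a potassium channel gene that ends 5327 bases before Otud5, changed by 1.88 in H3K27me3, and Pim2, a kinase gene whose span begins 1679 bases beyond it, by −3.62. Both neighbours of Otud5 had lost H3K9me3 (−2.91 and −5.55). For Uba1 the adjacent genes moved with it, by −3.20 at Rbm10 and −3.76 at Cdk16. The same held for Xiap, with −3.55 at Thoc2 and −3.19 at the cohesin gene Stag2, and for Cul4b, with −4.30 at Lamp2 and −3.20 at Mcts1. Both adjacent genes also fell at least 2-fold beside Ube2a (−3.28 and −1.98), Usp11 (−3.76 and −2.00), Usp9x (−4.20 and −1.73) and Huwe1 (−3.20 and −1.36). Beside Usp27x neither neighbour fell 2-fold, with 0.53 at the chloride transporter gene Clcn5 and 0.052 at Ppp1r3f. In MD1 EpiSCs H3K27me3 was at least 2-fold higher at 9 of 10 neighbours of Xiap, 8 around Cul4b, 5 around Otud5, 4 around Usp11, 3 around Uba1 and 2 around Ube2a. It was so at 1 of 10 around Usp9x and 0 of 10 around Huwe1 and Usp27x, where 22.7% of all genes were.

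**Figure D5:**
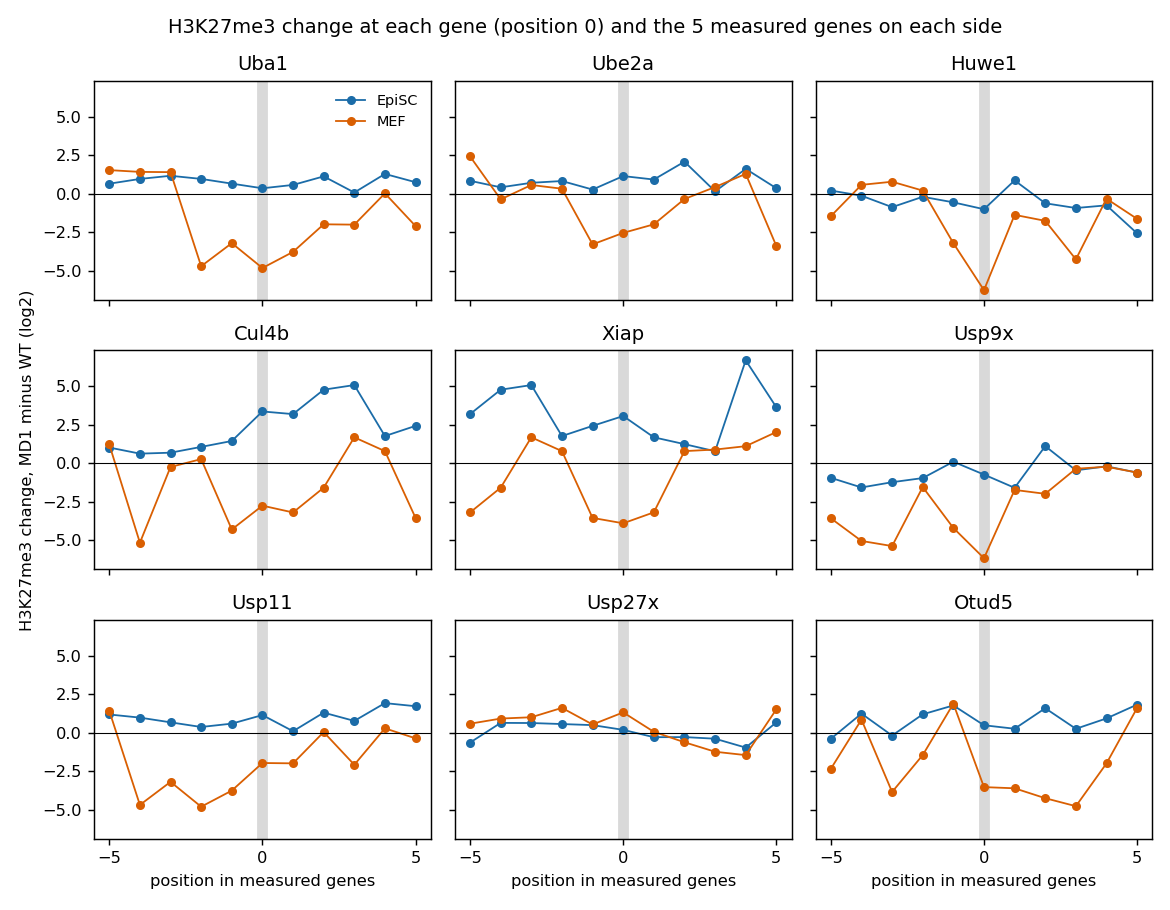
H3K27me3 change (MD1 minus WT, log2, y axis) at each of the 9 genes (position 0) and the 5 measured genes on each side (x axis, in gene order), in EpiSCs and MEFs. The MEF line has its lowest point at the gene itself for Huwe1 (−6.25), Usp9x (−6.17), Uba1 (−4.81) and Xiap (−3.90), while the EpiSC line stays above 0 over the whole window of Cul4b, Xiap, Uba1, Ube2a and Usp11.

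Over the 8 deposited values, the closest pairs among the 9 genes lay partly within and partly across roles. The distance used was the Euclidean distance over the 8 log2 values. Closest among the members were the activating enzyme gene Uba1 and the deubiquitinase gene Otud5 (1.59), then Huwe1 and Usp9x (1.86), 532 places apart in the order of measured genes, the deubiquitinase genes Usp11 and Otud5 (1.92), and the ligase genes Cul4b and Xiap (2.39). The farthest were Usp9x and Usp27x (8.02), both deubiquitinase genes. Among all 698 genes, Taf1 (1.21) and Med14 (1.61) were among the 3 nearest to Huwe1, and the nearest to Usp9x were Med14 (1.36), Zfx (1.79) and Huwe1. Adjacent genes were the nearest of all for Uba1 (Cdk16, 1.03), Ube2a (Nkrf, 1.34), Cul4b (Mcts1, 1.09) and Xiap (Thoc2). Usp11, Usp27x and Otud5 were nearest to genes farther off, Gripap1 (1.10), Rp2h (0.67) and Araf (1.36).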

How the data were processed

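The authors deposited log2 enrichment values, 1 per X-linked gene and ChIP library. The tools cutadapt, BWA and SAMtools and the build mm9 are named per the submitters' processing notes. The allele counted, the counting rule and any added pseudocount are not stated there. Samples were grouped by title.

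In each library the deposited ratios are whole-number fractions multiplied by an unknown constant, taken here as ChIP counts over those of the matched input. Pairs were recovered for 100% of values (denominator at most 30000, relative tolerance 1e-12). They are the smallest that give the values of both marks of the same cells with a shared input count. The recovery was tested on simulated counts, where 83.2% to 85.9% of genes gave the exact counts. For the rest the recovered pair differed from the true counts, so a recovered count can be smaller than the real one. The counting interval is then wider than the real counts would give. Pairs of the members' inputs ran from 6 to 893, and intervals use a normal approximation on the log scale (Python 3.11.15, scipy 1.17.1).

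Changes are MD1 minus WT as deposited, called at 2-fold, with no test, since each group is 1 library. The members and lists were chosen with earlier results of these data known. All 9 members were named, with the 2 largest changes of the pathway list per direction, adjacent genes and the 3 nearest genes by distance, of which 1 is not reported here. The window of 5 genes per side was added after the values were seen. Alternatives were centring, a pseudocount of 0.1, leaving out the lowest 10% of genes, input pairs of at least 20, and a 3-fold threshold.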

Additional observations from a re-analysis of the deposited data

Results flagged for a closer look

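Uba1, Ube2a, Cul4b, Xiap, Usp11 and Otud5 had H3K27me3 changes of opposite sign in the 2 cell types, above 0 in MD1 EpiSCs and below 0 in MD1 MEFs, each from 1 library per group. The share of all genes with this pattern of signs was not counted. With 2-fold as the limit in both cell types, 4 of the 9 had it, where 2.87% of 698 genes did. The difference between cell types was not tested. The MEF change minus the EpiSC change was −6.97 at Xiap (95% counting interval −7.56 to −6.38), −6.12 at Cul4b (−7.12 to −5.12), −5.18 at Uba1 (−6.10 to −4.26), −4.02 at Otud5 (−4.65 to −3.39), −3.69 at Ube2a (−4.75 to −2.63) and −3.11 at Usp11 (−3.85 to −2.38). At Uba1 the EpiSC change had a counting interval that included 0, and at Otud5 it was under 2-fold. Each difference also holds the ratios of 4 unknown library constants. For H3K9me3 all 9 genes were below 0 in both cell types as deposited. The median change over all genes was below 0 as well, −2.98 in EpiSCs and −1.02 in MEFs, so this sign is not particular to the 9.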

How the results depend on the processing

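Of 46 alternative values of the member counts, 42 stayed within 1.5 times the count as deposited, 15 of them counts of 0 that stayed 0. The counts at 8-fold were not among those varied. Of 72 alternative values of single-gene changes, 48 stayed within the counting interval and 24 did not. At a 3-fold threshold the count of members with higher H3K27me3 in MD1 EpiSCs went from 4 to 2, that with higher H3K27me3 in MD1 MEFs from 1 to 0, and that of H3K9me3-rich members in WT MEFs from 3 to 1. With input pairs of at least 20 the count with higher H3K27me3 in MD1 MEFs was also 0, because Usp27x was left out. Usp9x in EpiSCs and Xiap in MEFs lost their call for lower H3K9me3 after centring, with the pseudocount of 0.1 and at 3-fold. Members with lower H3K27me3 in MD1 MEFs numbered 7 or 8 in the 5 alternatives tried, those with lower H3K9me3 7 or 8 in EpiSCs and 6 or 7 in MEFs. Centring on genes outside the H3K9me3-rich set reversed the H3K9me3 change of Usp9x in EpiSCs, to 0.080 from −1.01. In MEFs it also took H3K9me3 changes above 0, to 0.42 from −0.47 at Usp9x and to 0.068 from −0.82 at Huwe1. A pseudocount of 0.1 brought the H3K27me3 change in MEFs to −5.17 at Huwe1 and −5.24 at Usp9x. No paired analysis was possible because each group holds 1 library and no replicate could be left out. The small pairs of Usp27x and the MD1 EpiSC H3K9me3 pairs, 1 to 46 over the members, limit the precision.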
